A study of Saccharomyces cerevisiae with 6 samples.

Results

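The 36 genes described here are budding yeast (Saccharomyces cerevisiae) genes known as G1/S targets of the transcription factors SBF and MBF. They were taken from a list of gene names, and each was read at the brightest Affymetrix probe set that the platform annotation assigns to that gene alone. All 36 were found among the 5656 genes with such a probe set, and all 36 passed the filter on dim signals. The arrays compare 3 cultures with wild-type histone H3 and 3 cultures whose H3 carries arginine in place of the lysines at positions 4, 36 and 79 (H3 K4,36,79R). Both groups grew in selective galactose medium and then spent 6 h in selective glucose medium, with harvest at an OD600 of 0.5 to 0.7. Per the series design, glucose switches off a wild-type H3 gene, so that the mutant form becomes the only H3 in the mutant cells. The labels name neither strain background nor plasmids, so any such difference between the groups cannot be told apart from the replaced lysines.

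SBF is a complex of the DNA-binding protein Swi4 with Swi6, and MBF a complex of Mbp1 with Swi6. Late in G1, the cyclin Cln3 and its kinase Cdc28 relieve repression of SBF by Whi5, and both factors then switch on genes that carry the cell past Start, the point of commitment to division. SBF is best known for G1 cyclins and for genes of budding and the cell wall, MBF for genes of deoxynucleotide supply, DNA replication and repair. The corepressor Nrm1 turns MBF targets off again as S phase proceeds. The lysines at positions 4, 36 and 79 of H3 are sites of methylation in transcribed chromatin. The comparison asks whether RNA levels of the G1/S genes differ when these sites are replaced.

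Values are MAS5 probe set signals after each array was brought to the same trimmed mean of 500. Differences are mutant minus wild type on the scale of log2(signal + 16), which understates changes of dim probe sets. A gene is called higher or lower at an adjusted p under 0.05 in limma, fitted over all 6808 probe sets tested. As deposited, the trimmed means of the 3 mutant arrays were 0.767 to 0.888 of the wild-type mean. The origin of this gap is not stated. With this gap left in, the median over all probe sets moved from 0.02 to -0.22. For the targeted H3 genes HHT1 and HHT2, which share their probe sets, 1 probe set fell by 1.57 (SE 0.12, limma adjusted p = 0.0013) and a brighter probe set differed by -0.11 (SE 0.11, limma adjusted p = 0.648). Pairs of mutant arrays correlated at 0.964 to 0.983 and pairs of wild-type arrays at 0.985 to 0.989 (log2 values). Pairs of a mutant and a wild-type array correlated at 0.961 to 0.981.

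No G1/S gene was called in either direction. Of the 36 genes, 0 were higher and 0 lower by limma at an adjusted p under 0.05, where 2.25% of all probe sets were called (0.896% higher and 1.35% lower). At an unadjusted p under 0.05 there were 3, RNR1, POL2 and CLB6, which is 8.33% of the 36 against 19.6% of all probe sets tested. The smallest adjusted p among the 36 was 0.145, for RNR1. Their differences ran from -0.42 for CLB6 to 0.42 for POL2, with a median of 0.04 against 0.02 over all probe sets. None of the 36 reached an absolute difference of 0.5, a size that 11% of all probe sets reached, and the smallest difference called in the whole comparison was 0.58. Means were higher in the mutant for 19 genes and lower for 17, close to the 52.5% of all probe sets with a higher mean. On the deposited scale 5 means were higher and 31 lower. Of the 5178 genes tested at their brightest probe set, 45 were called higher, 56 lower, and 477 reached an absolute difference of 0.5. A higher mean was found for 54.6% of these 5178 genes.

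With every array brought to the same trimmed mean, the fit limits how large an undetected change could be. A change common to all probe sets is outside these limits, and on the deposited scale the median of the 36 differences was -0.20. The intervals are for single genes and were not adjusted for their number. The 95% interval of each of the 36 differences lay within 1 unit of 0 on the log2(signal + 16) scale, and 15 intervals lay within 0.5. With the offset of 16 taken off, 34 intervals lay between 50% and 200% of the wild-type signal. The 2 exceptions were the lower bounds of CSI2, at 45.3%, and CLB6, at 48.7%, and the highest upper bound was 173%, for RAD53. The SE of a difference ranged from 0.11 to 0.30. The 3 mutant and 3 wild-type values did not overlap for 10 genes, or 27.8%, where 25.8% of all probe sets did not overlap. Of these 10, 7 were lower (CLB6, CLN1, RNR1, RFA3, ELO1, TOS4, YOX1) and 3 higher (PCL1, POL2, CDC9), against 11.5% and 14.3% of all probe sets. The RNA comes from whole cultures, so a different share of cells in late G1 and S phase and a different RNA level in those cells cannot be told apart.

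**Figure D1:**
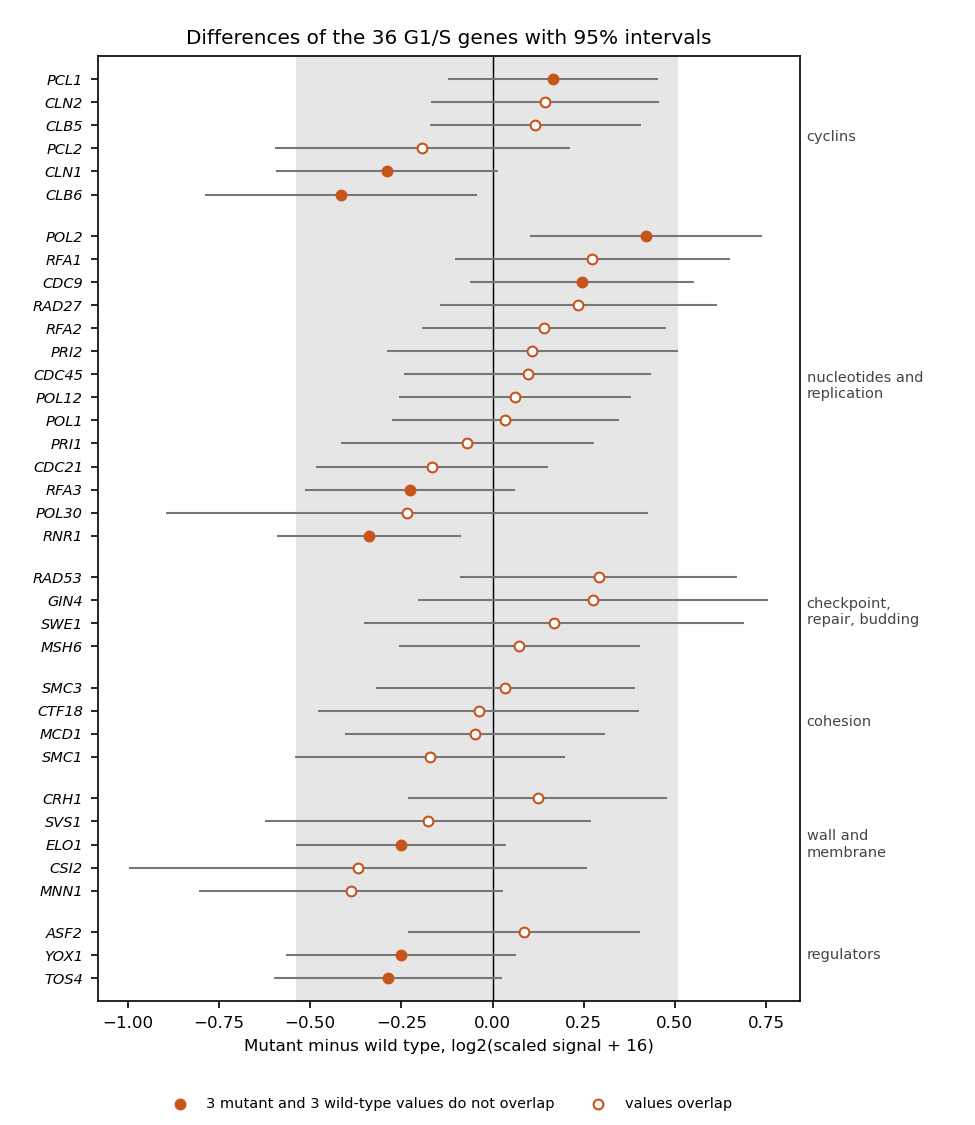
Difference between mutant and wild type for each of the 36 G1/S genes on the log2(scaled signal + 16) scale, with points for the limma estimate (3 arrays per group), bars for its 95% interval and a grey band from the 5th to the 95th percentile of all probe sets tested. All 36 points lie inside the grey band, between -0.42 (CLB6) and 0.42 (POL2), and filled points mark the 10 genes whose groups do not overlap.

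**Figure D2:**
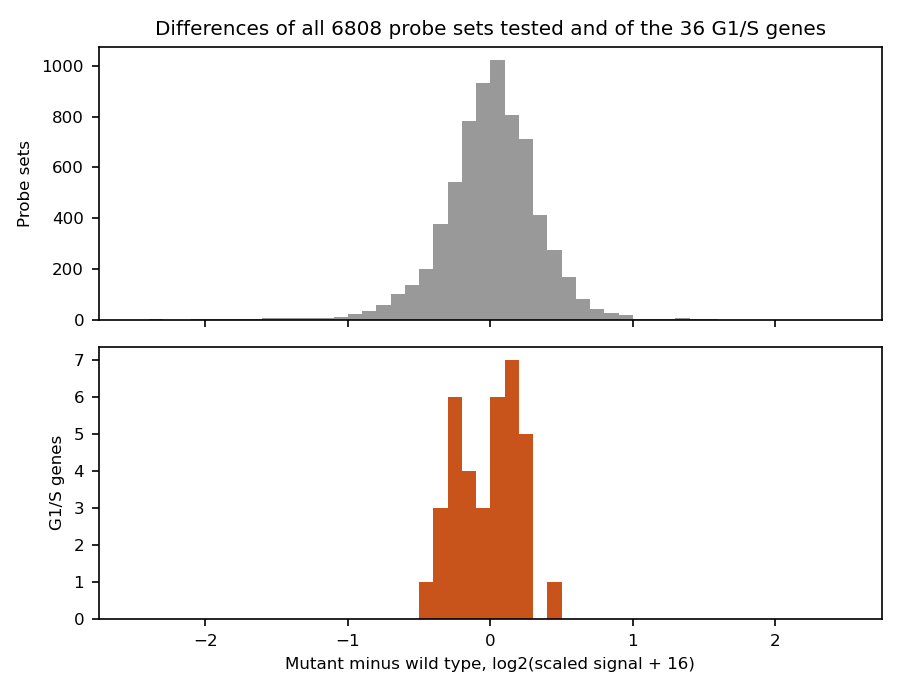
Histograms of the difference, mutant minus wild type on the log2(scaled signal + 16) scale in bins of 0.1, for all 6808 probe sets tested (upper panel) and for the 36 G1/S genes (lower panel). The G1/S genes spread over both sides of 0, with an SD of 0.23 against 0.33 for all probe sets.

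The cyclins were read for both branches of the G1/S programme. CLN1 and CLN2 (YMR199W and YPL256C) encode the G1 cyclins that drive Start, PCL1 and PCL2 encode cyclins of the kinase Pho85, and CLB5 and CLB6 encode the S-phase cyclins. CLN1 signals were 408, 408 and 369 in wild-type cells and 307, 359 and 297 in the mutant, which do not overlap. The difference was -0.29 (SE 0.14, limma adjusted p = 0.279), with a mutant mean at 81.2% of the wild type. CLN2, its close homologue, gave 282, 348 and 303 in wild-type cells and 317, 355 and 362 in the mutant. Here the groups overlapped and the difference was 0.14 (SE 0.14, limma adjusted p = 0.609). The 2 G1 cyclin genes had differences of opposite sign, and neither was called. On the deposited scale CLN2 also had a lower mean in the mutant (-0.10), as had PCL1 (-0.077) and CLB5 (-0.13).

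CLB6 (YGR109C) was the dimmest cyclin probe set, at 82.0, 62.6 and 75.9 in wild-type cells and 50.9, 44.9 and 57.3 in the mutant. Every mutant value lay under every wild-type value, at a mean of 73.5 ± 9.95 against 51.0 ± 6.24 (SD, n = 3). The difference of -0.42 (SE 0.17, 95% interval -0.79 to -0.04, limma adjusted p = 0.211) is the lowest of the 36. CLB5 (YPR120C), which shares the role of starting replication, gave 385, 404 and 401 in wild-type cells and 403, 424 and 471 in the mutant. The CLB5 groups overlapped at their edge, with a difference of 0.12 (SE 0.13, limma adjusted p = 0.658). PCL1 lay slightly higher in all 3 mutant arrays, at 388, 437 and 441 against 370, 367 and 386 (difference 0.17, limma adjusted p = 0.506). PCL2 differed by -0.19 (limma adjusted p = 0.596) and by -0.0071 without mutant replicate 2, and had overlapping groups. CLB6 and CLB5 each lie next to a mitotic cyclin gene in the R64 gene table. CLB1, the neighbour of CLB6, differed by -0.25 and CLB2, the neighbour of CLB5, by 0.01, with no call for either.

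Genes of deoxynucleotide supply and DNA replication make up 14 of the 36. Among these, 9 means were higher and 5 lower in the mutant, with a median difference of 0.08. RNR1 (YER070W), the large subunit of ribonucleotide reductase, gave 1723, 1722 and 1821 in wild-type cells and 1374, 1349 and 1431 in the mutant. The wild-type and mutant values were far apart relative to their spread, at means of 1755 ± 57.0 and 1384 ± 41.9 (SD, n = 3). The mutant mean was 78.9% of the wild type, a difference of -0.34 (SE 0.11, 95% interval -0.59 to -0.09, limma adjusted p = 0.145). On the deposited scale, where the median of all probe sets shifted by -0.23 and 6.03% of them were called, the RNR1 difference was -0.59 and was called (limma adjusted p = 0.026). CDC21 (YOR074C), thymidylate synthase and the other nucleotide gene, differed by -0.17 with overlapping groups (limma adjusted p = 0.555). The CDC21 probe set carries a suffix that marks probes shared with other sequences, and its dimmer probe set differed by -0.09.

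POL2 (YNL262W), the catalytic subunit of DNA polymerase epsilon, had the highest difference of the 36. Its signals were 591, 717 and 619 in wild-type cells and 761, 886 and 954 in the mutant, with no overlap. The mutant mean was 135% of the wild type, a difference of 0.42 (SE 0.14, 95% interval 0.10 to 0.74, limma adjusted p = 0.148). POL2 has 9 probe sets, of which 4 passed the signal filter. The other 3 tested, which are dimmer and carry a suffix that marks shared probes, differed by 0.47, 0.19 and 0.16. None of them was called, and each had overlapping groups. POL2 is also the longest of the 36 genes, with a coding length of 6669 bases. After removal of each array's trend with coding length its difference was 0.21 (limma adjusted p = 0.371), and with the mean over its probe sets 0.31.

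The other genes at the replication fork had smaller differences. CDC9 (YDL164C), DNA ligase I, gave 375, 394 and 401 in wild-type cells and 448, 423 and 530 in the mutant, without overlap (difference 0.24, SE 0.14, limma adjusted p = 0.356). The 3 subunits of replication protein A, the single-strand binding complex, did not share a sign. RFA3 gave 1419, 1195 and 1255 against 1173, 1012 and 1112, a difference of -0.23 (SE 0.13, limma adjusted p = 0.363) without overlap. RFA1 gave 853, 734 and 550 against 840, 914 and 804, a difference of 0.27 (SE 0.17, limma adjusted p = 0.401) that was 0.10 without wild-type replicate 3, and the groups overlapped. RFA2 differed by 0.14, and by -0.11 on the deposited scale. RAD27, the flap endonuclease of Okazaki fragment processing, differed by 0.24 (limma adjusted p = 0.478).

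POL30 (YBR088C) encodes PCNA, the sliding clamp of the replication fork. It gave 646, 683 and 1002 in wild-type cells and 598, 1054 and 424 in the mutant. Mutant replicate 2 was the highest of all 6 arrays and mutant replicate 3 the lowest, so the difference of -0.24 had the widest SE of the 36, at 0.30 (limma adjusted p = 0.704). DNA polymerase alpha and its primase had differences close to 0. POL1, the catalytic subunit, differed by 0.04, POL12 by 0.06, PRI1 by -0.07 and PRI2 by 0.11, with SEs of 0.14 to 0.18 and limma adjusted p of 0.778 to 0.914. CDC45, a part of the replicative helicase, differed by 0.10 (limma adjusted p = 0.770).

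Checkpoint, repair and morphogenesis genes had higher means in the mutant in 4 of 4 cases, where 52.5% of all probe sets had a higher mean. None of the 4 was called, and each had overlapping groups. RAD53 (YPL153C), the checkpoint kinase, was dim, at 60.6, 81.5 and 59.8 in wild-type cells and 75.5, 95.01 and 86.0 in the mutant. Mutant replicate 1 lay under wild-type replicate 2, and the difference was 0.29 (SE 0.17, limma adjusted p = 0.376). GIN4, a kinase of septin assembly, differed by 0.27 (SE 0.21), SWE1, the kinase that inhibits Cdc28, by 0.17 (SE 0.23) and MSH6, a mismatch repair protein, by 0.07 (SE 0.15). In SWE1 wild-type replicate 3 stood apart at 157, against 328 and 287 in the other wild-type arrays and 276 to 282 in the mutant. The MSH6 and SWE1 differences turned negative on the deposited scale. With each array's trend with coding length removed, the differences were 0.19 for RAD53, 0.14 for GIN4, 0.07 for SWE1 and -0.07 for MSH6.

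Cohesion genes showed the smallest differences of any role, with a median absolute difference of 0.04. MCD1 (YDL003W), the cohesin subunit that is cleaved at anaphase, gave 158, 187 and 165 in wild-type cells and 141, 158 and 195 in the mutant. The groups overlapped fully, with a difference of -0.05 (SE 0.16, limma adjusted p = 0.897). Its partners SMC1 and SMC3 differed by -0.17 and 0.04, and CTF18, of an alternative clamp loader, by -0.04 (limma adjusted p = 0.606 to 0.933). All 4 had overlapping groups, and for SMC1 mutant replicate 3 stood apart at 217, against 301 to 326 in the other 5 arrays. Without it the SMC1 difference was -0.0056.

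Of the 5 wall and membrane genes, 4 had lower means in the mutant and the median difference was -0.25. MNN1 (YER001W), a mannosyltransferase of the Golgi, gave 745, 861 and 695 in wild-type cells and 469, 769 and 539 in the mutant. Mutant replicates 1 and 3 lay below the wild type and mutant replicate 2 inside it, for a difference of -0.39 (SE 0.19, limma adjusted p = 0.287). ELO1 (YJL196C), a fatty acid elongase, gave 2673, 2049 and 2331 against 1896, 1959 and 2030, a difference of -0.25 (SE 0.13, limma adjusted p = 0.319) with no overlap. SVS1, a wall protein, and CSI2, a protein linked to chitin synthesis, differed by -0.18 and -0.37 with SEs of 0.20 and 0.28. Leaving out mutant replicate 3 gave -0.010 for CSI2 and 0.040 for SVS1, and leaving out mutant replicate 2 gave -0.67 and -0.41. CRH1, an enzyme that links chitin to glucan in the wall, differed by 0.12 (limma adjusted p = 0.710) and by -0.13 on the deposited scale.

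Among the regulators, TOS4 and YOX1 had non-overlapping groups. TOS4 (YLR183C), a protein with a forkhead-associated domain, gave 185, 166 and 152 in wild-type cells and 132, 136 and 135 in the mutant. The mutant arrays agreed closely, at 134 ± 1.98 against 168 ± 16.4 (SD, n = 3), and the difference was -0.29 (SE 0.14, limma adjusted p = 0.292). YOX1 (YML027W), a homeodomain repressor of M/G1 genes, gave 375, 386 and 435 against 325, 300.4 and 374, a difference of -0.25 (SE 0.14, limma adjusted p = 0.361). Its groups were separated by less than 1 signal unit, between mutant replicate 3 and wild-type replicate 1. ASF2, linked to silencing, differed by 0.09 (limma adjusted p = 0.779).

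**Figure D3:**
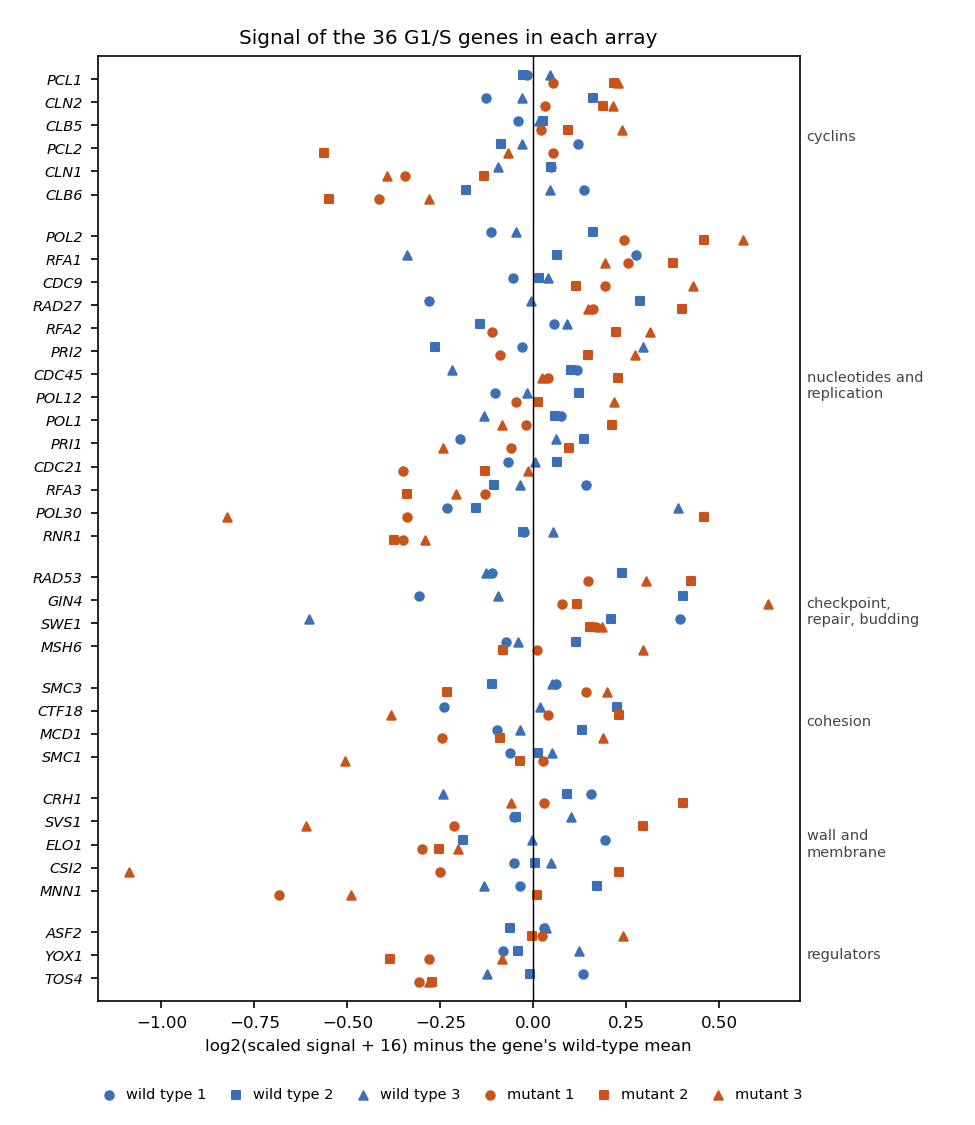
Signal of each G1/S gene in each of the 6 arrays, as log2(scaled signal + 16) minus the gene's wild-type mean (blue symbols for the 3 wild-type arrays, orange for the 3 mutant arrays). The RNR1 groups are separated with little spread, whereas POL30 and CSI2 spread over more of the axis in the mutant than in the wild type.

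The spread between arrays differed from gene to gene. The within-group SD on the log2 scale had a median over the 36 genes of 0.13 in wild-type cells and 0.16 in the mutant, against 0.13 and 0.20 over all probe sets. The mutant SD exceeded 0.3, a limit set after the values were seen, for 7 genes (PCL2, POL30, GIN4, CTF18, SVS1, MNN1 and CSI2), or 19.4% against 24.5% of all probe sets. It was highest for CSI2 at 0.67 and POL30 at 0.65. In CSI2 the mutant values were 137, 198 and 69.9, against 160.0, 167 and 172 in the wild type. POL30, CTF18, SVS1 and CSI2 all had mutant replicate 3 lowest and mutant replicate 2 highest, an order found in 11 of the 36 genes (30.6%) and in 20.6% of all probe sets. The order from mutant replicate 1 lowest to mutant replicate 3 highest was as common, in 11 genes (30.6%) and in 18.7% of all probe sets. The median of the 36 gene-centred values was 0.02, 0.06 and 0.02 in the 3 wild-type arrays and -0.04, 0.06 and 0.03 in the mutant arrays. These medians overlapped between the groups.

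The genes that control SBF and MBF were read in the same fit. Of 16 listed and tested, 0 were called by limma, where 2.25% of all probe sets were called, and 2 (12.5%) had an unadjusted p under 0.05, where 19.6% did. SWI4, SWI6 and MBP1, the subunits of the factors themselves, differed by -0.05, -0.01 and 0.09 (limma adjusted p = 0.757 to 0.972). The corepressor gene NRM1 differed by -0.03, CLN3 by -0.06, and SIC1, the inhibitor of the S-phase cyclin kinases, by 0.07. WHI5, the repressor of SBF, had the largest difference, with 112, 88.0 and 121 in wild-type cells and 72.3, 70.3 and 51.3 in the mutant. The WHI5 groups did not overlap and the difference was -0.61 (SE 0.18, 95% interval -1.01 to -0.21, limma adjusted p = 0.114). On the deposited scale it was -0.80 and was called (limma adjusted p = 0.047).

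A further 43 genes were listed as G1/S genes outside the 36, of which 36 were tested. Their median difference was 0.06, with 22 means higher and 14 lower. HCM1, a forkhead transcription factor made in late G1 that acts in S phase, was the only one called, 1 of 36 where 2.25% of all probe sets were called. It gave 319, 374 and 318 in wild-type cells and 223, 210.2 and 180.1 in the mutant, with no overlap. HCM1 fell by 0.68 (SE 0.14, 95% interval -1.003 to -0.36, limma adjusted p = 0.046). The call was lost without any of 5 arrays (limma adjusted p = 0.098 without mutant replicate 1, 0.103 without mutant replicate 3, and 0.146, 0.133 and 0.1395 without wild-type replicates 1, 2 and 3), and with no filter on dim probe sets (0.069).

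Lists of neighbouring cell-cycle phases had no called gene, where 2.25% of all probe sets were called. For 17 tested G2/M genes the median difference was 0.26, with 14 means higher (82.4%, against 52.5% of all probe sets). Of these 17, 6 were higher without overlap (35.3%, against 14.3%), namely ALK1, BUD4, DBF2, KIN3, FKH2 and HOF1. Of these 6, BUD4 (0.48) has a coding length of 4344 bases. DBF2 (0.55) and KIN3 (0.36) are shorter, at 1719 and 1308 bases, as are HOF1 (0.26), ALK1 (0.40) and FKH2 (0.42), at 2010, 2283 and 2589 bases. IQG1 (0.59), MYO1 (0.44) and BUD3 (0.33) had overlapping groups and coding lengths of 4488 to 5787 bases. The mitotic cyclin genes CLB1 and CLB2 differed by -0.25 and 0.01. Whether coding length contributes to the shift of this list was not tested. The array medians of this list were -0.15, -0.02 and -0.16 in wild-type cells and 0.09, 0.16 and 0.25 in the mutant, which do not overlap, unlike those of the 36 G1/S genes. For 16 M/G1 genes the median was -0.06, with 7 means higher and 9 lower. Of these 16, 6 did not overlap (37.5%, against 25.8% of all probe sets). They were 4 higher genes and 2 lower ones, DSE2 (-0.50) and SCW11 (-0.39). Within that list the 6 subunits of the MCM helicase, MCM2 to MCM7, which are loaded before S phase, had a median of 0.27 and 4 genes higher without overlap (66.7%, against 14.3% of all probe sets), a subset chosen after the values were seen. The difference between these lists and the G1/S genes was not tested.

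**Figure D4:**
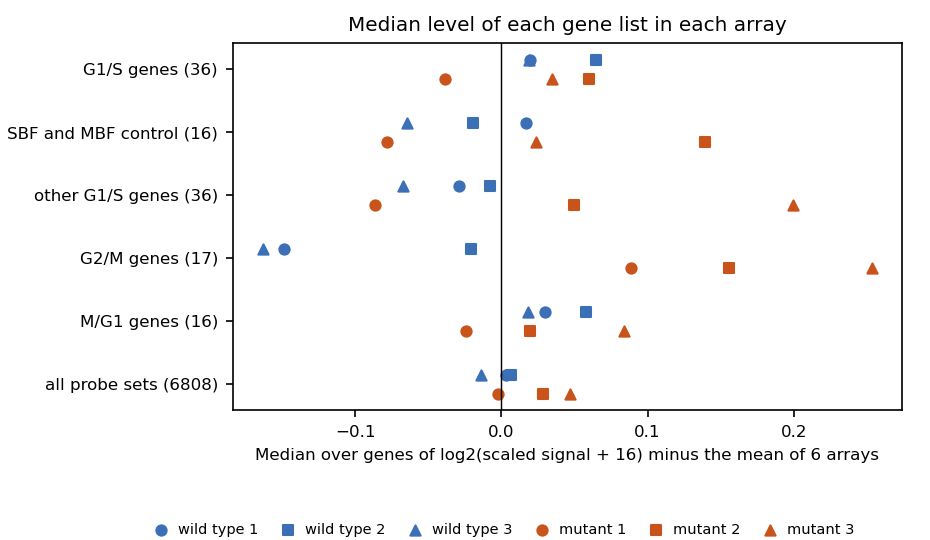
Median over the genes of each list, in each array, of log2(scaled signal + 16) after subtraction of each gene's mean over the 6 arrays (numbers of genes in brackets). The wild-type and mutant medians overlap for the 36 G1/S genes and do not overlap for the 17 G2/M genes.

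Over all genes, differences followed gene length. Of the 8 G1/S genes with a coding length of up to 1000 bases, 2 had higher means in the mutant, with a median of -0.18. Of the 22 genes above that and up to 3000 bases, 12 had higher means, with a median of 0.07. Of the 6 genes over 3000 bases (POL2, POL1, MSH6, SMC1, SMC3 and GIN4), 5 had higher means, with a median of 0.05. The medians of the 36 thus rose from the shortest class to the middle class and not further. Their shares with a higher mean were 25%, 54.5% and 83.3% in the 3 classes. Over all genes with a coding length the shares with a higher mean were 49.1%, 56.9% and 66.9% in these classes, with medians of -0.01, 0.04 and 0.11. With each array's length trend removed, the median of the 36 genes was -0.09, and the differences of POL1 (-0.12), POL12 (-0.02), MSH6 (-0.07) and SMC3 (-0.10) turned negative. The cause of the trend with length was not tested.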

How the data were processed

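The authors deposited linear probe set intensities from MAS5, per the submitters' processing notes, whose version is not given there. All 6 arrays, 3 per group, come from replicate cultures per the series design. The 60 control probe sets of 9335 were left out, arrays were brought to a common 2% trimmed mean of 500, and 6808 probe sets with a mean of at least 50 were tested. The test was limma 3.58.1 (R 4.3.3; lmFit, eBayes with an intensity trend) on log2(signal + 16), and p-values were adjusted by Benjamini-Hochberg over all of these. The procedure was tested on simulated data.

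A platform annotation named 6504 probe sets by 1 gene, and all matched the R64 gene table. The files name no genome build, so no coordinates are given. No detection calls were used, and the number of arrays limits the precision (median SE 0.16).

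The members and lists were chosen with earlier results of these data known. Values in every array are given for called members, the 12 smallest p, and CLN1, CLN2, CLB5, CLB6, RNR1, POL30 and MCD1; of the other lists SWI4, SWI6, MBP1, WHI5, NRM1, CLN3, SIC1 and called genes are named. Array values of other genes, and CLB1, CLB2, the MCM genes, the other named G2/M genes, DSE2 and SCW11, were added after their values were seen. Alternatives were other scalings (3), other offsets (1 and 64), a filter at 200 or none, no trend, array weights, a replicate block, removed length trends, the mean over a gene's probe sets, and leaving out each array. A count of promoter motifs was planned, but promoter sequences were not used here.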

Additional observations from a re-analysis of the deposited data

How the results depend on the processing

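Under 17 of 18 alternatives no G1/S gene was called; the exception was the deposited scale, with 1 gene called (RNR1), or 2.78% of the 36 against 6.03% of all probe sets there. For the 36 genes 638 values were recomputed, of which 598 kept their sign and side of the threshold and 39 turned sign. The median difference of the 36 was -0.20 on the deposited scale, where the median of all probe sets was -0.22, and -0.089 with length trends removed. Leaving out an array gave medians of -0.030 (without wild-type replicate 3) to 0.056 (without mutant replicate 1). The groups then did not overlap for 11 to 15 of the genes, against 30.9% to 42.6% of all probe sets. The lowest limma adjusted p was 0.056, for MNN1 without mutant replicate 2. The cause of these shifts was not tested.

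On the deposited scale the sign turned for CLN2 (-0.10), PCL1 (-0.077), CLB5 (-0.13), POL1 (-0.21), POL12 (-0.18), PRI2 (-0.12), RFA2 (-0.11), RAD27 (-0.0065), CDC45 (-0.14), MSH6 (-0.17), SWE1 (-0.069), SMC3 (-0.20), CRH1 (-0.13), ASF2 (-0.14), MBP1 (-0.14) and SIC1 (-0.17). With length trends removed it turned for POL1 (-0.12), POL12 (-0.020), MSH6 (-0.066), SMC3 (-0.10) and MBP1 (-0.0094), and with array weights for PRI2 (-0.046), RFA2 (-0.018), CTF18 (0.042) and SWI6 (0.0045). Leaving out 1 array gave ranges across 0 for POL1 (-0.053 to 0.095), POL12 (-0.016 to 0.12), PRI1 (-0.17 to 0.018), PRI2 (-0.022 to 0.26), POL30 (-0.58 to 0.059), CDC45 (-0.013 to 0.15), MSH6 (-0.036 to 0.15), SWE1 (-0.13 to 0.37), SMC3 (-0.046 to 0.17), MCD1 (-0.17 to 0.050), CTF18 (-0.17 to 0.13), SVS1 (-0.41 to 0.040), CRH1 (-0.016 to 0.22), SWI6 (-0.083 to 0.051), NRM1 (-0.13 to 0.080), CLN3 (-0.16 to 0.087) and SIC1 (-0.0051 to 0.13). A further 14 differences kept their sign but moved by over 1.5 times: CLN2 (0.080 to 0.22), PCL2 (-0.32 to -0.0071), CLB5 (0.057 to 0.17), CDC21 (-0.24 to -0.073), RFA1 (0.10 to 0.41), RFA2 (0.055 to 0.27), CDC9 (0.15 to 0.31), RAD27 (0.095 to 0.38), GIN4 (0.097 to 0.48), SMC1 (-0.27 to -0.0056), MNN1 (-0.59 to -0.24), CSI2 (-0.67 to -0.010), ELO1 (-0.35 to -0.16) and ASF2 (0.0099 to 0.13). None of these genes was called.

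With the replicate number as a block 0 of the 36 genes were called, 4 had an unadjusted p under 0.05 and the lowest adjusted p was 0.138 (POL2), while over all probe sets 108 were higher and 147 lower, against 61 and 92 without it. Same-numbered arrays had deviations that correlated at 0.13, 0.16 and 0.04, against -0.13 to 0.05 for arrays with different numbers. The labels do not describe the numbers as pairs, so the main fit did not use them. Array weights gave 184 and 206, no filter 33 and 54. Leaving out an array gave 13 to 124 higher and 23 to 140 lower over all probe sets, with the most calls without mutant replicate 2.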

Other observations

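POL30 lies next to RFC5, a subunit of the clamp loader that places PCNA on DNA, in the R64 gene table, and both had the same 3 lowest arrays in the same order. RFC5 gave 332, 393 and 437 in wild-type cells and 327, 431 and 203 in the mutant, a difference of -0.31 (SE 0.24, limma adjusted p = 0.501). Mutant replicate 3 was the lowest array for both genes, followed by mutant replicate 1 and wild-type replicate 1. The comparison was chosen after the values were seen, and whether it reflects the neighbouring positions was not tested. The other members next to a listed gene were CLB6 (CLB1), CLB5 (CLB2), ELO1 (CDC6), TOS4 (SWI6) and PCL1 (RFC3). ELO1 and CDC6, which starts replication licensing, differed by -0.25 and -0.23, TOS4 and SWI6 by -0.29 and -0.01, and PCL1 and RFC3 by 0.17 and -0.02, none of them called.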
